A study of Mus musculus with 6 samples.

Results

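The cells described here are the non-cycling cells of mouse esophageal organoids with the highest summed signal of 7 genes: Il33, Aldh1a7, Aldh1a3, Krt20, Elf5, Tm4sf1 and Adam28. Barcodes of all 6 libraries with at least 500 detected genes were pooled, and cells with UMIs of 2 or more of Top2a, Mki67, Birc5 and Ube2c were left out as cycling. Members were the cells at or above the 88th percentile of the mean deposited value of the 7 markers. They numbered 2704 of 22527 non-cycling cells (12%) and of 26808 barcodes in all (10.1%). The marker values chose the members, so every difference between members and other cells below is a description without a test.

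The organoids came from esophageal epithelial cells of C57B6 mice. Founders carried integrin-b1, by which basal cells hold on to the basement membrane, and excluded DAPI, a stain of dead cells. They were sorted by Cyto-ID, a dye of autophagic vesicles, into a Cyto-ID Low and a Cyto-ID High population, seeded at 500 to 1000 cells per well in Matrigel and grown for 15 days in medium with EGF, Noggin and R-Spondin and the ROCK inhibitor Y27632. Each group had 3 libraries of dissociated, live-enriched organoid cells, with the labels F2, M3 and F6, and the comparison asks whether the vesicle content of the founders was followed by a difference in their progeny. The dye was read in the founders only. Wells pooled per library are not stated, and nothing in the labels says that the libraries came from separate animals, so p-values measure the spread between these libraries. Cultures held epithelium alone, without stroma or immune cells added.

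Stratified squamous epithelium renews from basal cells attached to the basement membrane through integrins and collagen XVII. Cells that leave this layer take up other keratins, build desmosomes and tight junctions, and at the surface assemble a cornified envelope. IL-33 is an alarmin of the IL-1 family stored in the nucleus and released by damaged barrier cells. ALDH1A enzymes oxidise retinaldehyde to retinoic acid, which is known to change the differentiation of squamous epithelium. Keratin 20 is best known from intestine and from urothelial umbrella cells, and ELF5 is an ETS-family transcription factor of epithelial differentiation. TM4SF1 is a membrane protein with 4 transmembrane segments, and ADAM28 is a membrane-anchored metalloprotease.

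The name suprabasal was checked against keratins and adhesion genes. Levels are given as CPM, counts of a gene's UMIs scaled to 1000000 UMIs per cell and averaged over the cells of a library. Krt13, the keratin of the layers above the basal one, reached 10977, 20341 and 14943 CPM in Cyto-ID Low members, in the order F2, M3, F6, and 7889, 22046 and 13062 CPM in Cyto-ID High members. In the other non-cycling cells it averaged 3296 ± 1590 CPM (SD, n = 6 libraries), and its median fold over libraries was 4.90. Its partner Krt4 was 4.29-fold higher in the median library. Both were higher in members in every library. Of 6 listed suprabasal genes at 5 CPM or more, 5 were higher in members in all 6 libraries and 1, Sbsn, was lower. Of 9 basal genes 5 were lower in all 6 libraries and 1, Sox2, was higher, with a median log2 ratio of -0.91. Col17a1, for collagen XVII, averaged 31.6 CPM in members against 425 CPM in the other cells. The integrin genes Itgb4 (33.7 against 307 CPM), Itga6 (77.6 against 331) and Itgb1 (197 against 374) and Trp63, for the basal transcription factor p63 (15.3 against 71.1), were the other 4 that were lower. Of the basal keratins, Krt5 did not separate the cells. Krt5 averaged 3341 CPM in members and 3356 CPM in the others, higher in members in 4 of 6 libraries. Krt14 was 0.756-fold the level of the others, with a median over cells of 4146 against 9071 CPM. Krt15 had UMIs in 18.6% of members and 32.2% of the others. The label therefore holds for Krt4, Krt13, Col17a1 and the integrins, and not for Sbsn and Sox2. Transcripts of Krt5 were present at levels near those of the other cells, and those of Krt14 were present at lower levels.

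The members are a range of a score, and whether they form a separate population was not tested. The score at the 88th percentile was 1.27 on the natural log scale. Members ran from there to 2.93, with a median of 1.64. Within 0.1 of the threshold lay 399 members above it and 428 other cells below it. The other cells had a median score of 0.131, and 9089 of them had no UMI of any marker.

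**Figure D1:**
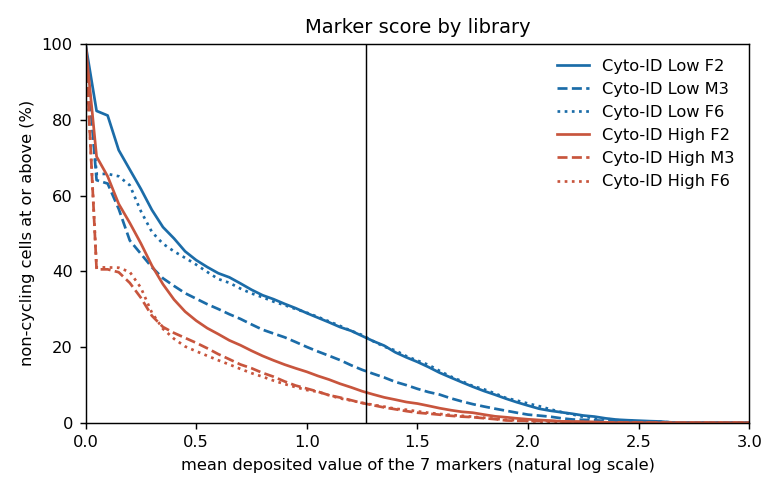
Percentage of non-cycling cells (y axis) at or above each mean value of the 7 markers (x axis, natural log scale), 1 line per library, with the threshold of 1.27 as a vertical line. The curves pass the threshold without a step, and the 3 Cyto-ID Low curves lie above the 3 Cyto-ID High curves there.

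Of the 7 markers, 5 have an upstream sequence in the RefSeq table used here (GRCm38.p6). The stretches of 250 bases before the start of Aldh1a7, a marker, and of its neighbour Aldh1a1 are shown because Aldh1a1 had the highest ratio in members among the 4578 genes with a mean of 20 CPM or more that were not used in the choice. The stretch of Aldh1a1 precedes the transcript start that RefSeq lists at 20601968, inside the longer gene span that GENCODE gives. Aldh1a1 (chr19:20492715-20643465, plus strand) and Aldh1a7 (chr19:20692953-20727562, minus strand) lie 49.5 kb apart on opposite strands (gene coordinates from GENCODE vM21, GRCm38). The sequences are at chr19:20601718-20601967 on the plus strand and chr19:20727557-20727806 on the minus strand, read 5′ to 3′, with capitals for 3 aligned runs of at least 12 identical bases:
Aldh1a1: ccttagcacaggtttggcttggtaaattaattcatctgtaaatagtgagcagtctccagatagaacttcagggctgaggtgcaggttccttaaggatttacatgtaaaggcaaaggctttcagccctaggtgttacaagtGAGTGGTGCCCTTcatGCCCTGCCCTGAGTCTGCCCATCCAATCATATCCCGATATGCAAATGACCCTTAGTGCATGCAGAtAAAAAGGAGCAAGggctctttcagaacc
Aldh1a7: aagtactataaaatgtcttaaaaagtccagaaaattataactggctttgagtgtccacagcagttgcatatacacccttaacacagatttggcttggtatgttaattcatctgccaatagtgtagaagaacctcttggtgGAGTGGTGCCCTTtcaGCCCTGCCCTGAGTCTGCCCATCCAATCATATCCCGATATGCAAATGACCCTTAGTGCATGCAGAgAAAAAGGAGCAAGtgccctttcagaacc
The 2 sequences were identical at 176 aligned bases, 70.4% of their length, and the longest identical run held 65 bases. The upstream stretch of Krt20 (chr11:99438154-99438403, minus strand) is shown because Elf5, an ETS factor, is among the markers. Capitals mark the ETS core GGAAG or its reverse complement CTTCC:
Krt20: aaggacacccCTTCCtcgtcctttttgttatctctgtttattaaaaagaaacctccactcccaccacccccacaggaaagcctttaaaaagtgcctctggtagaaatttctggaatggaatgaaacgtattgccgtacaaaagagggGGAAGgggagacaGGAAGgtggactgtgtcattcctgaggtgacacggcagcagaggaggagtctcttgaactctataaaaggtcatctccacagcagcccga
The core occurred 3 times there, once each upstream of Il33 and Tm4sf1, and in neither Aldh1a7 nor Elf5. On either strand it occurs in 64.1% of 32851 upstream stretches of the same length, so its presence is common. The AP-1 motif TGANTCA (in 6.75% of stretches) and the grainyhead motif AACCNGTT (in 1.79%) were searched on both strands and had no match in the 5 markers.

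Il33 (chr19:29925114-29960718, plus strand) had 615, 802 and 778 CPM in members of the Cyto-ID Low libraries and 537, 662 and 985 CPM in those of Cyto-ID High, in the order F2, M3, F6. Aldh1a3 (chr7:66390890-66427517, minus strand) had 3013, 1864 and 1605 CPM in Cyto-ID Low, against 2677, 1405 and 1447 CPM in Cyto-ID High. Krt20 (chr11:99428403-99438150, minus strand) had 1098, 1119 and 1402 CPM in Cyto-ID Low, against 903, 1154 and 574 CPM in Cyto-ID High. Within members the groups overlapped for all 3 genes, and the Cyto-ID High F6 library was the lowest for Krt20 and the highest for Il33. In the other cells these genes averaged 76.7, 193 and 92.3 CPM in that order.

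Aldh1a7 had 50.1, 118 and 130 CPM in Cyto-ID Low members and 40.3, 146 and 180 CPM in Cyto-ID High members. Elf5 (chr2:103411688-103450989, plus strand) ran from 170 to 302 CPM over the 6 libraries and Adam28 (chr14:68606027-68655842, minus strand) from 520 to 1044 CPM. Tm4sf1 (chr3:57285611-57301988, minus strand) varied most of these 3, from 615 CPM in Cyto-ID Low M3 to 2973 CPM in Cyto-ID High F6. For Aldh1a7 both F2 libraries were the lowest, whichever the sort.

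UMIs of the markers were common in members but not in each one. Aldh1a3 was detected in 97.4% of members, Krt20 in 91.4%, Adam28 in 86.7%, Il33 in 84.1%, Tm4sf1 in 83.8%, Elf5 in 71.0% and Aldh1a7 in 34.5%. Background was read in the 2697 cells highest in the basal genes Col17a1, Itgb4 and Itga6 that were not members. There Aldh1a3 was detected in 10.1% of cells, Krt20 in 8.31%, Adam28 in 14.6%, Il33 in 7.68%, Elf5 in 1.11% and Aldh1a7 in 0.371%. Tm4sf1 was detected in 39.9% of these basal cells, above its 26.5% among all other cells. The median depth was 7554.5 UMIs in members and 5839 UMIs in these basal cells. With every cell thinned to 1000 UMIs the shares in members and in these basal cells were 77.0% and 2.56% for Aldh1a3, 57.0% and 2.22% for Krt20, 55.8% and 16.1% for Tm4sf1, and 45.2% and 2.00% for Il33. They were 43.1% and 2.94% for Adam28, 20.2% and 0.151% for Elf5, and 9.48% and 0.151% for Aldh1a7. All 7 markers were detected in 430 members, 6 in 992, 5 in 809, 4 in 419 and 3 in 54.

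The markers were also read in UMIs that did not enter the choice of cells. When cells were chosen by the other 6 markers, the left-out gene remained higher in chosen cells in 6 of 6 libraries for each of the 7. The median folds were 11.7 for Aldh1a7, 8.05 for Aldh1a3, 7.90 for Elf5, 7.33 for Krt20, 5.94 for Il33, 5.89 for Adam28 and 4.66 for Tm4sf1. When the UMIs of each cell were split at random, with 1 part for choosing and the other for reading, the folds lay between 6.94 for Tm4sf1 and 10.99 for Aldh1a3. These folds are descriptions. The 7 markers were set with earlier results of these data known, so higher levels were likely beforehand and are no independent support. Among all non-cycling cells the markers correlated in each pair, with Spearman coefficients averaged over libraries from 0.21 for Aldh1a7 with Tm4sf1 to 0.58 for Aldh1a3 with Krt20. Within members the coefficients ran from -0.19 for Tm4sf1 with Adam28 to 0.16 for Aldh1a3 with Krt20. Cells of a library share its depth, and members were chosen on the sum of these genes.

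The share of members was lower in every Cyto-ID High library than in any Cyto-ID Low library. Members were 22.5% of non-cycling cells in Cyto-ID Low F2 (Wilson 95% interval 21.1 to 23.9%), 13.7% in M3 (12.8 to 14.7%) and 22.7% in F6 (21.1 to 24.3%). In Cyto-ID High they were 8.03% in F2 (7.20 to 8.95%), 5.10% in M3 (4.46 to 5.82%) and 5.15% in F6 (4.50 to 5.88%). The intervals cover counting error only. The mean share was 19.6 ± 5.13% for Cyto-ID Low founders against 6.09 ± 1.68% for Cyto-ID High founders (SD, n = 3 libraries each), a ratio of 3.22. The difference of -13.5 percentage points had a two-sided exact permutation p of 0.10, the smallest that 3 against 3 libraries allow. Members were chosen on marker values pooled over both sorts, so this test compares how the libraries fill 1 range of that score. Within labels the differences were -14.4 points for F2, -8.59 for M3 and -17.5 for F6.

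Depth moved with membership, and its part in the share was not tested beyond the following values. Members had more UMIs than the other cells in each library: their medians ran from 2066 in Cyto-ID High F6, against 1841 in the other cells there, to 13026.5 in Cyto-ID High F2, against 9419. With all cells thinned to 1000 UMIs, and 10 to 109 shallower cells left out per library, the shares were 20.1, 13.1 and 22.6% in Cyto-ID Low against 8.68, 6.28 and 7.18% in Cyto-ID High, a difference of -11.2 points. Of the cells chosen after thinning, 75.8% were members with all UMIs. They were 550 of 646, 493 of 651 and 479 of 570 in Cyto-ID Low. In Cyto-ID High they were 214 of 319, 161 of 248 and 156 of 276, a smaller part in each library. In cells of 2000 to 5000 UMIs alone the shares were 16.3, 2.80 and 23.5% in Cyto-ID Low against 3.49, 5.87 and 6.17% in Cyto-ID High. There the groups overlapped, because Cyto-ID Low M3 was the lowest of the 6, and the difference of -9.04 points had an exact permutation p of 0.40.

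Cells highest in Calm4, Krtdap and Sprr1b, genes of late cornification, had the opposite distribution. By the same percentile they were 2.07, 2.03 and 0.427% of cells in Cyto-ID Low against 18.1, 18.0 and 28.5% in Cyto-ID High, a difference of 20.04 points (exact permutation p = 0.10, the smallest possible). Cells highest in the superficial genes Sprr2f, Psca and Duoxa2 were 24.8, 10.9 and 14.6% against 13.2, 10.2 and 1.95%, and the groups overlapped (exact permutation p = 0.20). Members overlapped little with the first set, which held 51 of them (1.89%), and more with the second, which held 780 (28.8%). The overlap differed between libraries. Of members, 0.688, 1.46 and 0.514% were also in the cornifying set in Cyto-ID Low, against 2.03, 3.86 and 9.36% in Cyto-ID High, without overlap of the groups. Those also in the superficial set were 42.5, 26.9 and 23.3% against 22.0, 34.3 and 6.90%, lowest in Cyto-ID High F6. The sets can overlap, but shares of the same cells are not independent measurements.

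**Figure D2:**
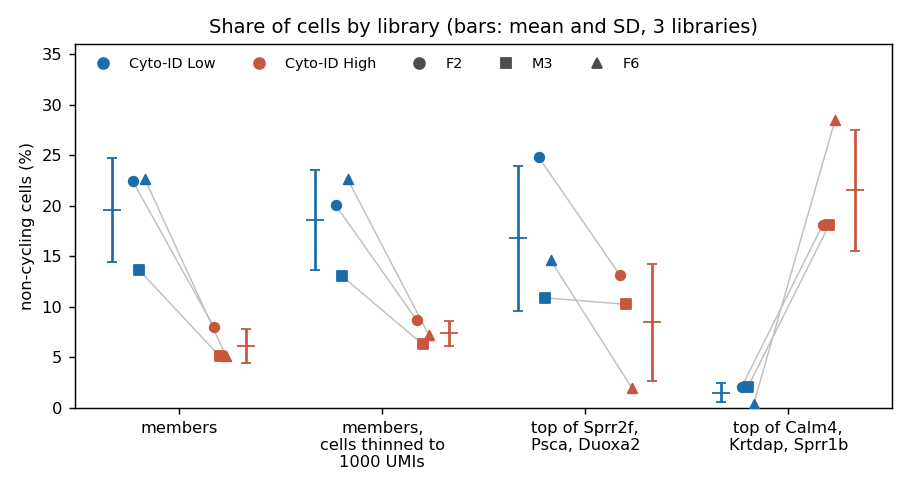
Percentage of non-cycling cells (y axis) in each set by library, with Cyto-ID Low in blue, Cyto-ID High in red, symbols for F2, M3 and F6, grey lines joining equal labels, and bars for the mean and SD of 3 libraries. Members averaged 19.6% in Cyto-ID Low against 6.09% in Cyto-ID High, whereas the set of Calm4, Krtdap and Sprr1b stood at 1.51% and 21.5%.

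Over all non-cycling cells, whose choice did not use the markers, the same genes were measured per library. Il33 averaged 209 ± 26.7 CPM for Cyto-ID Low founders against 108 ± 24.5 CPM for Cyto-ID High founders (SD, n = 3). Krt20 averaged 333 ± 86.0 against 117 ± 42.5 CPM, and Adam28 226 ± 40.8 against 111 ± 16.2 CPM. Elf5 averaged 66.3 ± 22.3 against 32.4 ± 6.26 CPM. For these 4 genes the groups did not overlap, but the share of all genes without overlap in these cells was not computed. The same markers chose the members, so these values are no separate support for the share. The groups overlapped for Aldh1a3 (623 ± 309 against 257 ± 158 CPM), Aldh1a7 (23.7 ± 12.5 against 11.9 ± 6.12 CPM) and Tm4sf1 (451 ± 288 against 324 ± 150 CPM). Between equal labels Aldh1a3 and Aldh1a7 were lower in Cyto-ID High each time, whereas Tm4sf1 was higher there in the M3 pair, at 154 against 144 CPM. In such averages fewer cells of a kind and less RNA per cell cannot be told apart.

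Genes outside the markers followed the score in the same direction across libraries. Of 4578 such genes that averaged 20 CPM or more, 1113 were higher in members in all 6 libraries (24.3%) and 1712 lower (37.4%). Aldh1a1, the retinaldehyde dehydrogenase next to Aldh1a7, had 29.3, 65.8 and 76.2 CPM in Cyto-ID Low members and 31.9, 100 and 131 CPM in Cyto-ID High members. The other cells had 2.29 to 10.9 CPM, so no library of members overlapped them, and the median fold was 9.52. In the last 500 bases of transcripts, where 3′ reads fall, 5 of 2053 windows of 91 bases of Aldh1a1 were shared with Aldh1a7. Aldh1a7 had 0 shared windows of 410. Rdh10, which makes retinaldehyde from retinol, was 3.04-fold higher in members. The retinoid list as a whole was not raised: of 15 listed genes at 5 CPM or more apart from the markers, 3 were higher in all 6 libraries and 8 lower, including the uptake receptor Stra6. At that level 17.2% of all 8489 genes were higher and 39.0% lower, with a median log2 ratio of -0.25. The list's median was -0.73.

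Arginase 1, Arg1, had 7826, 6240 and 6936 CPM in Cyto-ID Low members and 6548, 5470 and 4851 CPM in Cyto-ID High members, against 1321 ± 474 CPM (SD, n = 6) in the other cells. The chemokine precursor gene Ppbp had 8276, 4608 and 3595 CPM against 7461, 4109 and 6096 CPM, and 723 ± 363 CPM in the other cells. These 2 genes were also the most like the marker score across cells: with 22192 cells thinned to 1000 UMIs, Pearson coefficients averaged over 6 libraries were 0.605 for Arg1 and 0.589 for Ppbp. Anxa1 (0.537), Ecm1 (0.533), Gsto1 (0.512), Krt13 (0.477) and Psca (0.470) followed among 2195 genes. Here and below, levels in the superficial, cornifying and basal sets are those without members, which were 780 of 2704 cells of the superficial set. Neither Arg1 nor Ppbp was particular to members, since the superficial set had 5044 and 4020 CPM of them. Alox15, a lipoxygenase of arachidonic and linoleic acid, averaged 784 CPM in members, 156 CPM in the superficial set, 135 CPM in the cornifying set and 31.6 CPM in the basal set.

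Listed by the rule for the highest median fold, the remaining genes were Krtap3-2 (7.11), the ectonucleotidase Enpp3 (7.02), Tprg (6.81), Sprr3 (6.76), the GABA receptor subunit Gabrp (6.63), Ifi205 (6.53), Oit1 (6.44), the adhesion molecule Ceacam1 (6.34), Lce3a (6.19), Krt6b (6.07), sciellin (Scel, 6.05), Lrrc26 (5.94), Sprr2a3 (5.91), Calml3 (5.77), Serpinb11 (5.42), Kctd14 (5.42), Prr15l (5.30), Tmem265 (5.24), the EGFR ligand amphiregulin (Areg, 5.19) and Serpinb1a (5.12). Each was higher in members in all 6 libraries. Sprr2a3 shares 41.8% of its windows with Sprr2a1 and Sprr2a2, so its level is uncertain. Sprr3 was uneven: members had 646 CPM of it in Cyto-ID High F6 and 146 to 223 CPM in the other 5 libraries.

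The 12 genes with the lowest median log2 ratio were Gpnmb (-4.55), the Notch ligand Jag2 (-4.41), Col12a1 (-4.38), Wnt10a (-4.19), the carbonic anhydrase Car12 (-4.08), Thbs1 (-3.92), the metallothioneins Mt4 (-3.91) and Mt2 (-3.75), 4930523C07Rik (-3.79), Lmo1 (-3.77), Igfbp2 (-3.73) and Col17a1 (-3.71). Jag2 averaged 1.42 CPM in members and 86.0 CPM in the basal set. Wnt10a averaged 2.52 CPM in members and 96.2 CPM in the basal set. Mt4 averaged 1365 CPM in the cornifying set, from 120 to 2765 CPM over libraries, against 50.1 CPM in the basal set. Igfbp2 averaged 101 CPM there, but from 0 to 262 CPM, against 3.53 to 43.8 CPM in the basal set, so these ranges overlapped. Members included, the cornifying set held 11 to 102 cells in the Cyto-ID Low libraries and 668 to 1123 in Cyto-ID High.

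**Figure D3:**
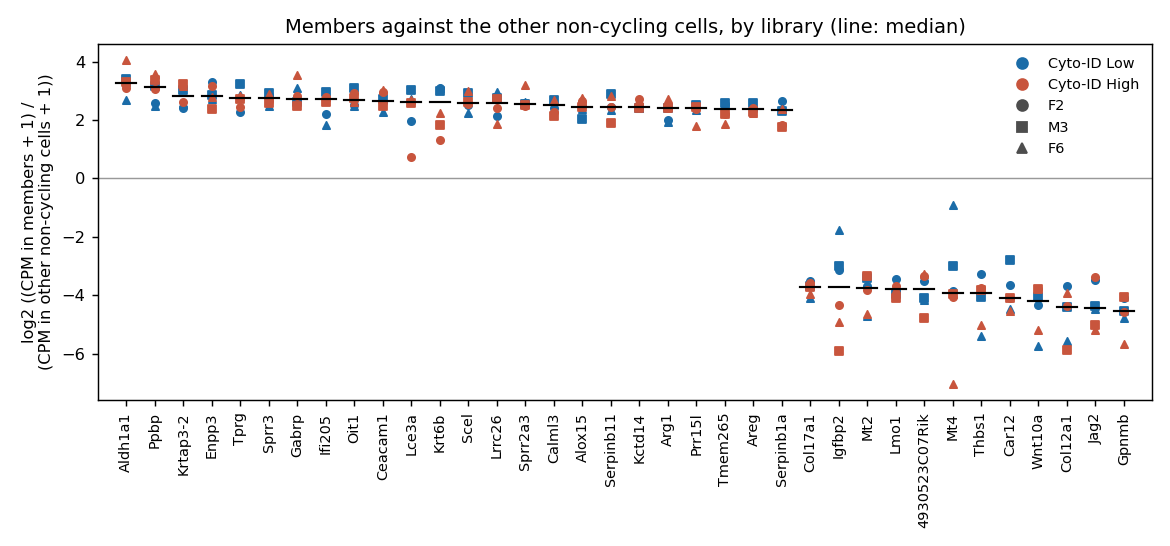
Log2 ratio of members over other non-cycling cells (y axis, 1 CPM added to both) for the 24 genes with the highest and the 12 with the lowest median, 1 point per library (colour for the sort, symbol for the label) and a line for the median. All points of the first 24 genes lie above 0 and all points of the last 12 below; Mt4 and Igfbp2 spread the most among the 12.

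Structural genes were higher in members in several groups. Of 17 listed keratins apart from Krt20, 11 were higher in all 6 libraries and 1 lower, with a median log2 ratio of 1.37. Krt6b had 1409, 2804 and 2117 CPM in Cyto-ID Low members and 1085, 2275 and 3901 CPM in Cyto-ID High members, against 447 CPM on average in other cells. Of 14 tight junction genes, 13 were higher and 1 lower (median 1.22), with Cldn7 at 4.36-fold, Cldn3 at 3.94-fold and Cldn1 at 3.17-fold. Of 10 desmosome genes 6 were higher and 2 lower, led by periplakin (Ppl, 4.44-fold) and envoplakin (Evpl, 4.15-fold), which link desmosomes to keratins. All comparisons of lists are counts beside the 17.2% and 39.0% of all genes and carry no test.

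Cornified envelope genes split in 2 directions. Of 22 listed, 12 were higher in all 6 libraries and 2 lower, with a median of 1.14. Members were higher in Sprr3, in Crct1 (4.99-fold) and in the crosslinking enzymes Tgm3 (4.52-fold) and Tgm1 (2.13-fold). They were lower in Krtdap, a keratinocyte differentiation protein, with a median log2 ratio of -2.61. Calm4, a calmodulin-like protein of cornifying cells, had -1.32 with 1 of 6 libraries higher, and Sprr1b had -1.19 with 2 of 6 higher. Hopx, a homeobox gene, was 4.29-fold higher, again most in Cyto-ID High F6 at 1062 CPM.

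Keratins of simple epithelia were also higher. Of 10 listed genes of simple or columnar epithelium, 7 were at 5 CPM or more, and these 7 were higher in all 6 libraries. Krt8 had 210, 144 and 184 CPM in Cyto-ID Low members and 226, 168 and 88.8 CPM in Cyto-ID High members, against 47.0 CPM in the other cells. Krt19 had 1363, 1833 and 706 CPM against 1456, 1669 and 145 CPM. The Cyto-ID High F6 members were the lowest of the 6 in Krt7, Krt8, Krt18, Krt19, Krt20 and Cldn3. Krt7 was higher in the superficial set without members (6219 CPM) than in members (1898 CPM). Of the listed genes under 5 CPM, Agr2 had UMIs in 0.185% of members and 0.742% of the other cells. Tff2 had UMIs in 0.0370% against 0.0151%, and the mucin gene Muc5b was at 0 in all members.

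Markers of other cell types were low. The immune list summed to at most 0.098 CPM in any library of members, with Ptprc, Cd3e, Lyz2, Cd52 and Tyrobp at 0 in all. The lists of fibroblasts (at most 1.01 CPM), endothelium (0.468), Merkel or neuroendocrine cells (2.97), tuft cells (4.05), muscle (3.37) and umbrella cells (2.64) summed to a few CPM at most. The tuft list reached 1.36 CPM in the other cells, below its highest sum in members, where Pou2f3 was its only detected gene. Trpm5 and Dclk1 of tuft cells, Atoh1 of Merkel cells and Upk3b of umbrella cells were at 0 in all members. Mitochondrial UMIs were 0.730 to 1.504% of the total in members and 1.60 to 2.61% in the other cells, lower in members in each library.

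**Figure D4:**
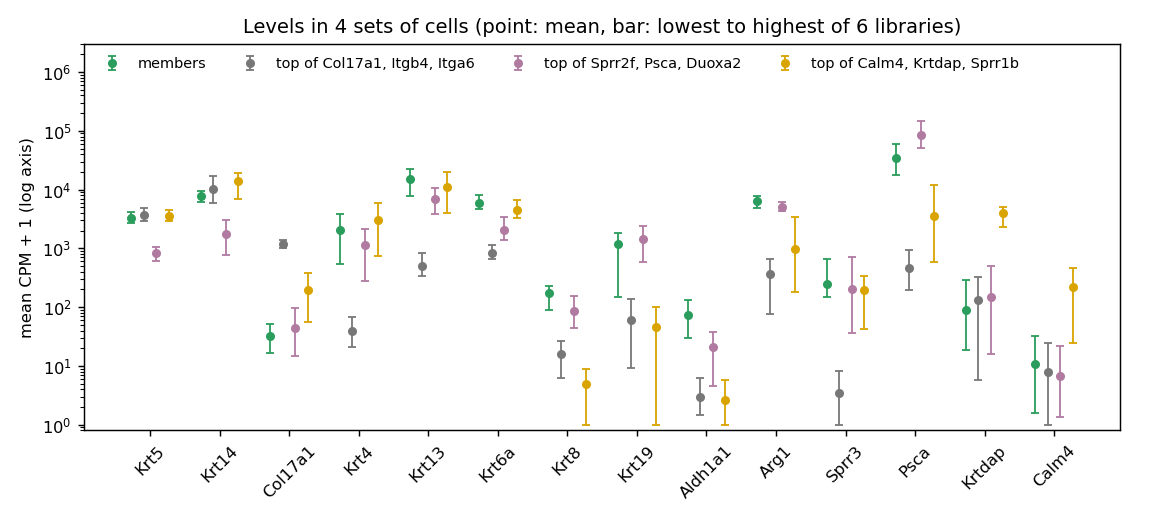
Mean CPM plus 1 (y axis, log scale) of 14 genes in members and in 3 other sets of cells, from which members were left out; points are means and bars span the lowest to the highest of 6 libraries. Members are apart from the basal set in Col17a1, Krt4 and Krt13, from the cornifying set in Krt8, Aldh1a1 and Krtdap, and have a lower mean than the superficial set in Psca.

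Some genes of secreted signals were higher as well. Il1a, an alarmin like Il33, had 616, 186 and 291 CPM in Cyto-ID Low members and 491, 142 and 231 CPM in Cyto-ID High members, and was 4.17-fold above the other cells in the median library. Il18 was 2.20-fold higher, whereas the antagonist Il1rn was at 1.04-fold. Of 10 listed genes of the IL-1 family and inflammasome apart from Il33, 3 were higher in all 6 libraries and 1 lower, with a median log2 ratio of 0.17. Of 8 listed genes of EGFR ligands and receptors, 6 were higher in all 6 libraries and 0 lower. Areg had 249, 167 and 261 CPM against 150, 187 and 205 CPM, Btc was 3.43-fold higher, Hbegf 2.55-fold and Ereg 2.26-fold. The Notch receptors went apart, with Notch3 at 2.22-fold and Notch1 at a log2 ratio of -2.51.

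Among transcription factors of the ETS, grainyhead and Klf lists, 10 of 23 were higher in all 6 libraries and 8 lower, with a median of -0.03. Elf3, another ETS factor of surface epithelium, was 2.70-fold higher and Grhl1 2.00-fold, whereas Ehf (1.25-fold) and Klf4 (1.17-fold) were near the other cells. Nfix (-1.42) and Cebpa (-1.49) were lower on the log2 scale. All 4 metallothioneins were low in the median, Mt1 at -3.09, and 3 were lower in all 6 libraries. Secreted defence genes were mixed, with 5 of 16 higher and 6 lower: Pglyrp1, a peptidoglycan recognition protein, was 4.71-fold higher, and the defensin Defb1 (-2.98) and lipocalin Lcn2 (-2.36) were lower. Of 27 core autophagy genes, the process that Cyto-ID reports on, 6 were higher and 7 lower with a median of 0.00, from Wipi1 at 1.91-fold to Atg16l1 at -1.003 on the log2 scale.

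Cyto-ID High and Low founders were then compared within members, on log2(mean CPM + 1) with TMM scaling. In limma, 0 of 10705 genes passed a Benjamini-Hochberg adjusted p of 0.05 (0% called), and the lowest adjusted p was 1.00. At an unadjusted p under 0.05 there were 53 genes higher in Cyto-ID High (0.495%) and 134 lower (1.25%), together 187 (1.75%). The median half-width of a gene's unadjusted 95% interval was 0.90, so for a typical gene a log2 difference below that size was not resolved. Larger differences did not pass after adjustment either, such as 3.67 for Mt4. The 7 markers were fitted with the other genes and count among those tested. Their results are not read, because they chose the members. No other count or single-cell test was run.

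None of the following genes passed, and each had a limma Benjamini-Hochberg adjusted p of 1.00. Cdkn2a, the locus of the cell-cycle inhibitors p16 and ARF, whose transcripts share their 3′ end, had 4.18, 6.48 and 8.05 CPM in Cyto-ID Low members and 31.7, 23.4 and 21.1 CPM in Cyto-ID High members (log2 difference 1.90, SE 0.35). Its groups did not overlap in members, nor in the other cells, where it had 4.89, 4.02 and 3.32 against 24.7, 10.4 and 10.7 CPM. The share of all genes without overlap in the other cells was not computed. The phosphatase gene Dusp1, induced by stress and dissociation, had 128, 53.9 and 61.6 against 248, 175 and 139 CPM (1.29, SE 0.33). Gm94 differed by 2.50 (SE 0.56) with 0.557 to 4.24 against 8.01 to 29.6 CPM. Its difference was 1.82 without members that were also in the cornifying set. Genes whose groups did not overlap numbered 239 higher (2.23%) and 498 lower (4.65%) in Cyto-ID High, together 737 (6.88%).

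Krtdap had 17.8, 31.8 and 28.2 CPM in Cyto-ID Low members and 63.2, 92.7 and 294 CPM in Cyto-ID High members (log2 difference 2.23, SE 0.53). Mt4 had 1.80, 0.208 and 0 CPM against 40.1, 29.4 and 4.23 CPM (3.67, SE 0.74). In the other cells Krtdap had 125, 69.2 and 29.3 against 940, 889 and 1644 CPM, and Mt4 39.6, 8.72 and 0.870 against 678, 474 and 676 CPM. For both genes the levels in members lay below those of the other cells in each library, and the groups did not overlap in members. The share of cells highest in Calm4, Krtdap and Sprr1b, 0.427 to 2.07% in Cyto-ID Low against 18.0 to 28.5% in Cyto-ID High, moved with these values, and its part in them was not tested. Krtdap helped to choose those cells, so that share is not separate from the level of Krtdap. Without members that were also in the cornifying set, the Krtdap difference was 1.94 and that of Mt4 3.58. Without Cyto-ID High F6 they were 1.57 and 4.58, and at 1000 UMIs per cell 1.52 and 3.47. With Mt4 at or near 0 in Cyto-ID Low members, its difference depends on the pseudocount and was 5.51 with 0.1 CPM added.

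On the lower side the listed genes were Srgap2 (log2 difference -1.62), Tmigd1 (-1.05), Ufl1 (-0.98), Hspa4l (-0.85) and Tns4 (-0.84), and their groups did not overlap. Srgap2 was at -1.03 and Ufl1 at -0.61 without Cyto-ID High F6. At 1000 UMIs per cell Srgap2 was at -0.70, Hspa4l at -0.39, Tns4 at -0.38 and Tmigd1 at 0.00668. With the percentile taken in each library Srgap2 was at -0.55 and Tns4 at 0.15. Tmigd1, for an adhesion molecule, had 21.3, 19.97 and 20.1 CPM in Cyto-ID Low members and 12.03, 7.84 and 8.34 CPM in Cyto-ID High members. Ufl1, a ligase for the ubiquitin-like UFM1, had 60.5, 55.6 and 50.0 against 39.7, 32.0 and 15.4 CPM. Alox15 had 963, 908 and 905 CPM against 643, 608 and 679 CPM, without overlap, and differed by -0.50 (SE 0.26, limma Benjamini-Hochberg adjusted p = 1.00).

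By list, 0 genes were called in each. The counts at an unadjusted p under 0.05 stand beside 0.495% higher and 1.25% lower of all genes tested. The cornified envelope list had 4 of 23 higher (Sprr1b, Krtdap, Calm4 and Sbsn), with a list median of 0.31 beside -0.10 for all genes tested. Of 3 metallothioneins tested, Mt2 and Mt4 were higher at that level. Of 14 interferon-stimulated genes, Ifit1 and Isg15 were lower, Isg15 with 119, 65.5 and 70.1 CPM in Cyto-ID Low members against 72.6, 32.4 and 21.3 CPM. Of 14 immediate early genes, Egr1 and Dusp1 were higher. Of 27 autophagy genes, 16 retinoid genes and 9 basal genes, 0 reached that level.

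**Figure D5:**
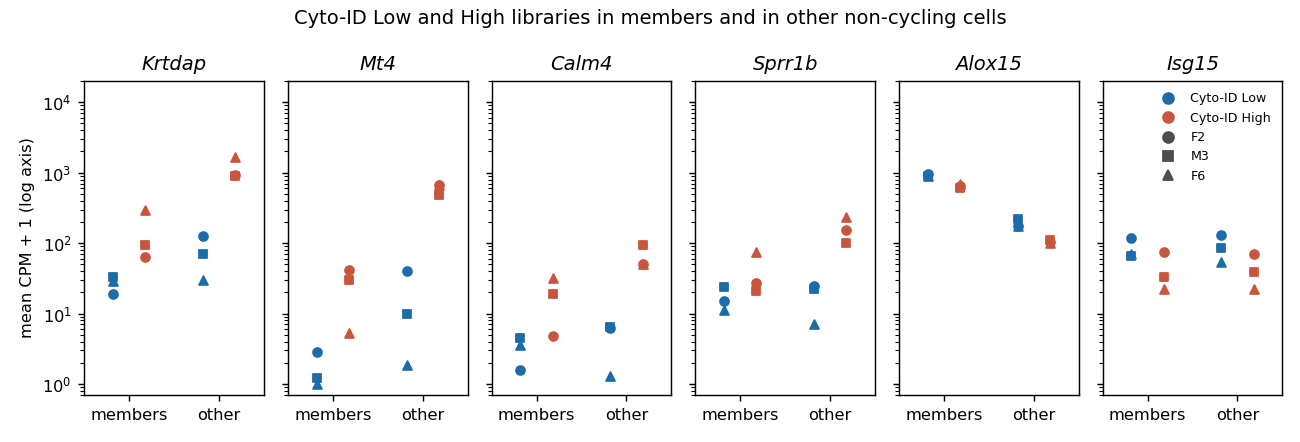
Mean CPM plus 1 (y axis, log scale) of 6 genes in members and in the other non-cycling cells, 1 point per library, with Cyto-ID Low in blue, Cyto-ID High in red and symbols for F2, M3 and F6. In members the sorts are apart for Krtdap, Mt4, Calm4 and Alox15 and overlap for Sprr1b and Isg15.

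The other non-cycling cells gave 18 genes higher in Cyto-ID High (0.155% of 11622) and 0 lower by the same limma test, with 434 higher (3.73%) and 275 lower (2.37%) at an unadjusted p under 0.05. The set of cells highest in Calm4, Krtdap and Sprr1b was 1.51% of all non-cycling cells in Cyto-ID Low on average and 21.5% in Cyto-ID High. These genes are themselves among the 18, so the share of this set is no separate measure of make-up. Cells of a kind and RNA per cell cannot be told apart. Within that set, members left out, limma called 0 of 10706 genes (0% called, with 497 or 4.64% at an unadjusted p under 0.05), with a median interval half-width of 1.98 on the log2 scale. The set held 11 to 102 cells per Cyto-ID Low library before its members were left out, 51 of 2704 over all libraries. Within the superficial set it called 1 of 10045 (0.00996%), Mt4, with 248 (2.47%) at an unadjusted p under 0.05. Of the 18, 11 were tested in members. Krtdap differed in the other non-cycling cells by a log2 of 4.26 (limma, Benjamini-Hochberg adjusted p = 0.0163), Mt4 by 6.20 (0.0295), Calm4 by 4.17 (0.0295), Sprr1b by 3.43 (0.0295) and the binding protein gene Igfbp2 by 2.83 (0.00325). In members the same differences were 2.23, 3.67, 2.28, 1.15 and 0.25. Both sets of values come from the same 6 libraries. The genes were named because they passed in the other cells, so larger differences there were likely beforehand.

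Whether a difference itself differed between members and the other cells was tested per library. In limma with Benjamini-Hochberg adjustment 0 of 11809 genes passed (0% called), and at an unadjusted p under 0.05 there were 238 higher (2.02%) and 647 lower (5.48%), together 885 (7.49%). The balance of directions depended on the scaling: without TMM there were 487 higher and 395 lower, and the median log2 of all genes was 0.01 in place of -0.11. The lowest adjusted p was 0.393, shared by Stfa3, Aldh3b2, Tnfrsf19, Rhbg and Lypd3. Aldh3b2, an aldehyde dehydrogenase of lipid aldehydes, had 35.9, 69.1 and 63.9 CPM in Cyto-ID Low members against 32.7, 92.7 and 52.2 CPM in Cyto-ID High members. In the other cells it had 9.47, 17.3 and 14.0 against 30.5, 64.3 and 31.8 CPM, and the difference of differences was -1.64 (SE 0.21). Lypd3, a surface protein of suprabasal keratinocytes, had 280, 359 and 332 against 240, 303 and 311 CPM in members and 100, 159 and 130 against 177, 247 and 228 CPM elsewhere (-1.07, SE 0.15). For both genes the sorts overlapped in members and were apart in the other cells, where the share of all genes apart was not computed. Of 17 NRF2 targets 9 had a lower difference at an unadjusted p under 0.05 (7 without TMM), among them Gsta2 and Gsta4 under both scalings. Of 17 antiproteases and antimicrobial proteins 8 did (4 without TMM), and of 18 keratins Krt4, Krt6a, Krt6b and Krt16 under both scalings. In the other direction stood 3 of 14 immediate early genes, Fos, Egr1 and Dusp1 (4 without TMM), and 1 of 27 autophagy genes, Gabarapl1. Without TMM the autophagy genes were 3, with Map1lc3b and Sqstm1.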

How the data were processed

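RNA of single cells was counted as unique molecular identifiers (UMIs) in droplet 3′ libraries from organoids of 3 Cyto-ID Low and 3 Cyto-ID High sorts. The authors deposited natural log values, ln(1 + 10000 × UMIs / total), a unit read from the values. Cell Ranger 6.0.0, Seurat 4 and the builds mm10 and GRCm38 are named, without roles, per the submitters' processing notes; other steps are not given in the sources used here. UMIs were recovered, with 100% of values whole within 1e-06. Libraries held 8457489 to 48957523 UMIs, with no barcode under 500 UMIs or over 10.0% mitochondrial UMIs. Of 26808 barcodes, 25154 had 500 genes, and 2627 of these were cycling. Sequences of 85 barcodes occurred in more than 1 library, in 14 members. No doublet caller was run.

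Gene tests used limma 3.58.1 (R 4.3.3) with a mean-variance trend on log2(CPM + 1) after TMM (trimmed mean of M values), for genes with 1 CPM in 3 libraries, the deposited unit being logarithmic. Shares were compared by two-sided exact permutation. The tests were run on simulated data first. Because 1 CPM is added before the log, folds of genes with low levels come out too small. Deviations from group means correlated between equal labels at 0.56 (F2), 0.47 (M3) and 0.18 (F6) in members. Between unequal labels the values ran from -0.45 to 0.04. With 3 libraries a group such deviations depend on one another, so these values do not establish a pairing. The main tests therefore took no account of pairs. The labels, taken from the titles, were used as assumed pairs only for differences within labels and for the replicate block. Named genes were the markers, listed genes, the 24 highest and 12 lowest ratios at 20 CPM, the 10 most like the score, and the 5 smallest p-values per direction at a mean of 10 CPM where none passed (5 in all for the difference of differences). Members and lists were chosen with earlier results of these data known. Alternatives changed libraries, block, depth, thresholds, doublets, scaling, pseudocount and filter.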

Additional observations from a re-analysis of the deposited data

Results flagged for a closer look

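The share of members moved against the share of cells highest in Calm4, Krtdap and Sprr1b. Cyto-ID High minus Low was -13.5 percentage points for members, lower in 3 of 3 pairs of equal label. It was 20.04 points for the cells highest in Calm4, Krtdap and Sprr1b, higher in 3 of 3 pairs. The difference between these effects was not tested. A lower share in each pair was not particular to members. Cells highest in Sprr2f, Psca and Duoxa2 were 24.8, 10.9 and 14.6% in Cyto-ID Low against 13.2, 10.2 and 1.95% in Cyto-ID High. Cells highest in Col17a1, Itgb4 and Itga6 were 25.9, 9.88 and 9.70% against 21.0, 3.67 and 4.99%. For both of these sets the groups overlapped. With 3 libraries a group, no single library was tested for standing apart.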

How the results depend on the processing

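The lower share of members in Cyto-ID High kept its direction in every alternative run: leaving out each library (-16.5 to -12.0 points, where the exact permutation test of 3 against 2 cannot go under p = 0.20), thinning to 1000 UMIs (-11.2), the 85th (-15.0) and 92nd percentile (-10.2), at least 1000 genes (-13.1), no top 5% of cells by UMIs (-12.8), cycling cells kept (-13.8) and all cells as denominator (-12.9). After seeing the data, cells with 4 or more markers detected at 1000 UMIs (-5.46), thinning to 2000 UMIs (-11.4) and cells of 2000 to 5000 UMIs (-9.04) were added. With the replicate block, the sign-flip p of the -13.5 points was 0.25, the smallest that 3 pairs allow. The block gave 0 genes called within members (416 at an unadjusted p under 0.05, lowest adjusted p 0.169) and 0 for the difference of differences (918, 0.603), so the pairing changed no call. Within members, 19 of 20 alternatives called 0 genes. The exception, added after seeing the data, took the percentile in each library and called 1 gene, Mt4 (log2 difference 4.98, limma Benjamini-Hochberg adjusted p = 0.000772). Leaving out each library gave 0 to 0 calls, with 49 to 951 genes at an unadjusted p under 0.05. Without Cyto-ID High F6 the lowest adjusted p was 0.0654. For the difference of differences, 11 of 11 alternatives called 0 genes, including each library left out (0 to 0, with 395 to 1660 unadjusted). Of 15 named genes, 2 reversed: Tmigd1 at 1000 UMIs (0.00668, against -1.05) and Tns4 with the percentile in each library (0.15, against -0.84). The causes were not tested. Depth limits cells under 1000 UMIs, and markers of few UMIs such as Aldh1a7 most.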
